A study of Drosophila melanogaster with 4 samples.

Results

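Reads of 20 to 24 nt that start with G were a minor class among the small RNAs held by Ago1 and Ago2 in adult male flies. The class comprised every distinct sequence of this length whose first base is G in any of the 4 deposited sequence lists, each counted once per list. It held 698 sequences, of 4008 in the same length range and 7181 of any length. In that range 1161 other sequences started with A, 760 with C and 1389 with U. Of the 698 members, 176 were listed in all 4 libraries and 282 in 1 library. Levels are given as RPM, the reads of a sequence scaled to a library of 1000000 listed reads. Averaged over the 4 libraries, 48 members reached 10 RPM or more, and 572 stayed under 1 RPM. The rule for members used length and first base alone and no read counts, but it was set with earlier results of these data known.

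The flies carried FLAG-HA-Ago2, a tagged Ago2, in all 4 groups, including those from which Ago1 was taken. Whole males kept at 25 °C were sampled at 3 d and at 30 d of age. Ago1 was isolated with the antibody ab5070 and Ago2 through its tag with anti-FLAG M2 beads, so the protein and the reagent used to isolate it cannot be told apart. Each combination of protein and age had 1 library, and the number of animals per library is not given in the sources used here. A difference between libraries therefore has no replicate check, no test across conditions was made, and all intervals are 95% intervals of the counting error only. In whole flies, fewer cells that make an RNA and less of that RNA per cell cannot be told apart. The Ago1 lists held 26636441 (3 d) and 26451651 reads (30 d), and the Ago2 lists 13491805 and 34554191. Unless ages are named, a pair of values is given as 3 d and then 30 d.

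A miRNA hairpin is cut into a short duplex, and an Argonaute protein keeps 1 strand of it. The strand's first base sits in a pocket of the protein's MID domain, and the bases just after it, the seed (bases 2 to 8), pair with target mRNAs. In flies Ago1 mostly holds miRNA guide strands, many of which start with U. Ago2 mainly holds siRNAs and takes up part of the miRNA passenger strands, the partners of the usual guides. A start 1 nt earlier or later gives a 5′ isomiR, which has another seed and can have another first base. A G at the start can therefore be the usual first base of a strand, or it can come from a shifted start.

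Sequences are shown for the strands that carried most of these reads, because the start decides both the G and the seed. Bases 2 to 8 are in capitals, T is written for U, and the sequences are those of the deposited lists. The first set holds strands whose own most abundant form starts with G, with a second start for miR-996-5p.
miR-33-5p, 21 nt: gTGCATTGtagtcgcattgtc
miR-996-5p, 22 nt: gCGAACATggatctagtgcacg
miR-996-5p started 1 nt earlier, 23 nt: gGCGAACAtggatctagtgcacg
miR-993-3p, 23 nt: gAAGCTCGtctctacaggtatct
miR-956-5p, 24 nt: gTGTTTGGaatggtctcgttagct
miR-1012-5p, 21 nt: gTGGGTAGaactttgattaat

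The second set shows shifted starts, each beside the more abundant or longer form of the same strand, so that the change of seed can be read. In miR-956-3p the G precedes the usual start, and in the other strands the first bases are missing. In each pair the listed forms share their 3′ end or nearly so. Starts of miR-1-3p are counted here from its full-length form. In the sums by start further below they are counted from its most abundant form, of 20 nt. There the 21 nt form counts as started 1 nt earlier.
miR-956-3p, most abundant form, 22 nt: tTCGAGACcactctaatccatt
miR-956-3p, started 1 nt earlier, 23 nt: tTTCGAGAccactctaatccatt
miR-956-3p, started 2 nt earlier with G, 23 nt: gTTTCGAGaccactctaatccat
miR-263a-5p, most abundant form, 24 nt: aATGGCACtggaagaattcacggg
miR-263a-5p, started 4 nt later with G, 20 nt: gCACTGGAagaattcacggg
miR-1-3p, full-length form, 22 nt: tGGAATGTaaagaagtatggag
miR-1-3p, started 1 nt later with G, 21 nt: gGAATGTAaagaagtatggag
miR-1-3p, started 2 nt later with G, 20 nt: gAATGTAAagaagtatggag
let-7-5p, most abundant form, 21 nt: tGAGGTAGtaggttgtatagt
let-7-5p, started 1 nt later with G, 20 nt: gAGGTAGTaggttgtatagt
bantam-3p, most abundant form, 23 nt: tGAGATCAttttgaaagctgatt
bantam-3p, started 1 nt later with G, 22 nt: gAGATCATtttgaaagctgatt

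Reads starting with G were the rarest of the 4 first bases in every library. In the Ago1 libraries they made up 6803 RPM at the younger age and 12351 RPM at the older, and in the Ago2 libraries 12641 RPM and 19571 RPM. As shares of all listed reads these are 0.680% (0.677% to 0.683%), 1.24% (1.23% to 1.24%), 1.26% (1.26% to 1.27%) and 1.96% (1.95% to 1.96%). The youngest Ago1 library stood lowest and the oldest Ago2 library highest, while the remaining pair, Ago1 at 30 d and Ago2 at 3 d, lay close together. By number of sequences the class was less rare, with 412, 369, 325 and 450 members listed in the same order. Few sequences held the reads. The 2 most abundant members of each library took 57.2% and 75.1% of the G reads with Ago1 at 3 d and 30 d, and 66.5% and 72.1% with Ago2. The 48 more abundant members held from 94.9% to 97.9%.

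The reads summed over all members gave Ago2 over Ago1 log2 ratios of 0.89 (0.88 to 0.90) at 3 d and 0.66 (0.66 to 0.67) at 30 d. Between the ages, 30 d over 3 d, the log2 ratio was 0.86 (0.85 to 0.87) for the Ago1 libraries and 0.63 (0.62 to 0.64) for the Ago2 libraries. Each of these pairs of ratios is built from the same 4 libraries, so they are not separate evidence. The Ago2 over Ago1 ratio was lower by 0.23 at the later age, with a log2 change of -0.23 (-0.24 to -0.22). For comparison, the summed ratio at 3 d was 1.61 for first base A, -0.07 for C and -1.10 for U, and the age ratios of those bases lay between -0.39 and 0.14.

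The direction with age in the Ago1 libraries rested on 1 strand. miR-33-5p, which is encoded in an intron of the gene SREBP and, in mammals, limits sterol export, held more G reads than any other strand in both Ago1 libraries and with Ago2 at 30 d, and the second most, after miR-14-5p, with Ago2 at 3 d. Without it the G reads stood at 3143 and 2873 RPM with Ago1 and at 9185 and 12202 RPM with Ago2 (3 d and 30 d). The age ratio with Ago1 was then -0.13 (-0.14 to -0.12), the opposite sign, and 0.41 (0.40 to 0.42) with Ago2. The ratio of Ago2 over Ago1 became 1.55 at 3 d and 2.09 at 30 d, a change of 0.54 (0.52 to 0.56). Without miR-14-5p, the leading strand with Ago2 at 3 d, the ratio of Ago2 over Ago1 was 0.20 at 3 d and 0.05 at 30 d. Without both strands it was 0.49 and 1.06.

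The length profile differed from that of all reads and between the proteins. With Ago1 57.0% and 70.9% of the G reads were 21 nt long at 3 d and 30 d, against 9.24% and 12.5% of all reads of 20 to 24 nt. With Ago2 the G reads were divided between 21 nt (30.8% and 40.7%) and 22 nt (47.3% and 42.3%), while 48.0% and 51.7% of all Ago2 reads in the window were 24 nt long. The mean length of G reads was 21.5 and 21.3 nt in the Ago1 libraries and 21.8 and 21.6 nt in the Ago2 ones, below the mean for each other first base in the same library. The 21 nt and 22 nt peaks were those of miR-33-5p and miR-14-5p. With both left out, 23 nt was the leading length in each library, with 30.4% and 29.7% of the remaining G reads with Ago1 and 42.5% and 33.4% with Ago2.

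**Figure D1:**
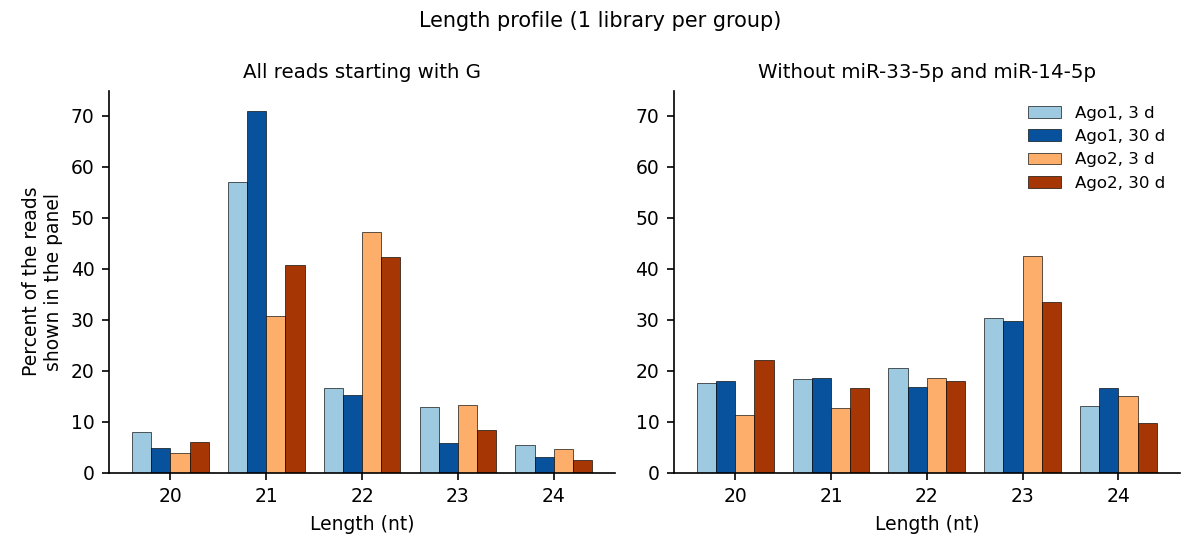
Length of the reads of 20 to 24 nt that start with G, as percent of the reads shown in each panel, for the 4 libraries (bars, 1 library each; x axis, length in nt). With all reads, the Ago1 libraries peak at 21 nt and the Ago2 libraries are divided between 21 and 22 nt. Without miR-33-5p and miR-14-5p all 4 libraries peak at 23 nt.

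The number of distinct members by length was 158 at 20 nt, 185 at 21 nt, 166 at 22 nt, 106 at 23 nt and 83 at 24 nt. Just outside the window, 168 sequences starting with G were 19 nt long and 67 were 25 nt long. Those of 19 nt held 171 and 159 RPM with Ago1 and 827 and 1057 RPM with Ago2, and without miR-33-5p and miR-14-5p 159 and 127 RPM with Ago1 and 52.7 and 149.9 RPM with Ago2. Those of 25 nt held from 4.05 to 11.4 RPM.

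**Figure D2:**
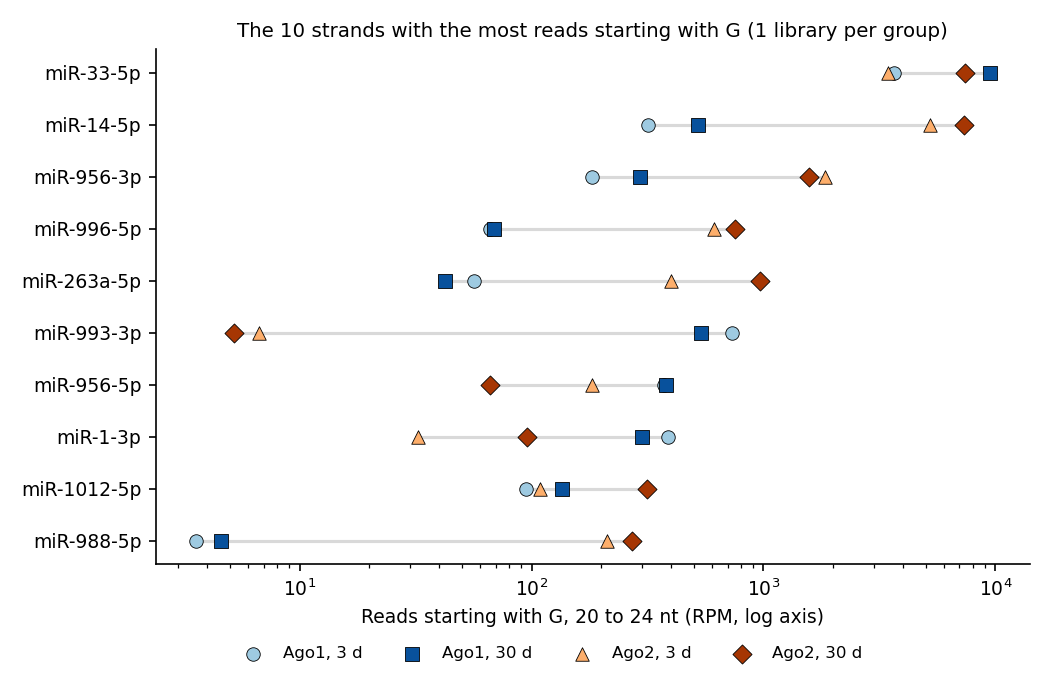
Reads of 20 to 24 nt starting with G (x axis, RPM, log scale) for the 10 strands with the most of them (rows), each library as a point. For miR-14-5p, miR-956-3p, miR-996-5p, miR-263a-5p and miR-988-5p both Ago2 points lie above both Ago1 points, and for miR-993-3p, miR-956-5p and miR-1-3p both lie below.

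Listed sequences whose bases match exactly over their overlap were taken as end variants of 1 strand, and the most abundant of them as its leading form. Members belonged to 239 strands of 632, and 91 members led their own strand. Of 91 strands with a mean of at least 100 RPM, 8 were led by a form starting with G, against 16 led by A, 23 by C and 44 by U. These 8 were miR-33-5p, miR-14-5p, miR-996-5p, miR-993-3p, miR-956-5p, miR-1-3p, miR-1012-5p and miR-988-5p. Named strands held from 94.9% to 98.6% of the G reads.

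miR-33-5p had G reads of 3660.1 and 9478 RPM with Ago1 and 3456 and 7369 RPM with Ago2 at 3 d and 30 d. Both 30 d libraries were above both 3 d libraries, and the proteins overlapped. Its log2 ratio of 30 d over 3 d was 1.37 (1.36 to 1.38) for Ago1 and 1.09 (1.08 to 1.11) for Ago2. Its ratio of Ago2 over Ago1 was -0.08 at 3 d and -0.36 at 30 d, and both signs turned when libraries were scaled by TMM, by the median of ratios or by totals without the 10 most abundant sequences. The 22 nt form, 1 nt longer at its 3′ end than the leading 21 nt form, made up 6.72% and 10.3% of this start with Ago1 and 3.81% and 3.94% with Ago2.

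miR-14-5p is the passenger strand of a hairpin whose other strand restrains cell death and fat storage in flies. It had G reads of 317 and 524 RPM with Ago1 and 5207 and 7292 RPM with Ago2. Both Ago2 libraries lay far above both Ago1 libraries, by 16.4-fold at 3 d and 13.9-fold at 30 d. Its log2 age ratio was 0.72 (0.69 to 0.76) for Ago1 and 0.49 (0.47 to 0.50) for Ago2. Its 22 nt form made up 98.4% and 98.1% of this start with Ago1 and 98.2% and 97.6% with Ago2.

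miR-996-5p is the partner of miR-996-3p, a strand of the miR-279 seed family. It had G reads of 66.4 and 69.1 RPM with Ago1 and 611 and 757 RPM with Ago2, so the Ago2 libraries were 9.20-fold and 10.9-fold higher. Both of its main starts are G, 1 nt apart, and the proteins held them in different proportions. The earlier start made up 75.2% and 75.7% of the strand's reads with Ago1 and 44.5% and 49.1% with Ago2. The later start made up 20.2% and 19.5% for Ago1 and 51.6% and 47.6% for Ago2. The 22 nt later form alone had an Ago2 over Ago1 ratio of 4.96 at 3 d on the log2(RPM + 1) scale used for single members.

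miR-988-5p, encoded in an intron of Prp8, had G reads of 3.57 and 4.57 RPM with Ago1 and 211 and 270.5 RPM with Ago2. Its Ago2 libraries were 59.04-fold and 59.1-fold higher, with log2 ratios of 5.88 (5.59 to 6.19) and 5.89 (5.63 to 6.16). miR-1012-5p is a mirtron strand, cut from a spliced intron of Lerp rather than from a hairpin processed by Drosha. It had 94.9 and 135 RPM with Ago1 and 109 and 314 RPM with Ago2. Only the Ago2 library at 30 d stood apart, with an age ratio of 1.53 (1.45 to 1.61) with Ago2 against 0.51 (0.44 to 0.58) with Ago1.

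Of the 10 leading strands, miR-993-3p had the lowest ratio of Ago2 over Ago1. It had 731 and 539 RPM with Ago1 and 6.67 and 5.24 RPM with Ago2. The Ago1 libraries were 109.6-fold higher at 3 d and 103-fold higher at 30 d. The 23 nt form made up 73.8% of this start with Ago1 at 3 d and 59.9% at 30 d, and the 22 nt form 25.2% and 36.3%.

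miR-956-5p had G reads of 373 and 382 RPM with Ago1 and 182 and 66.5 RPM with Ago2. The Ago1 libraries were level, while the Ago2 library at 30 d was 2.73-fold below the one at 3 d, with a log2 age ratio of -1.45 (-1.53 to -1.37). The proteins also differed in the 3′ end of this strand. The 24 nt form made up 85.0% and 85.5% of its main start with Ago1 and 42.7% and 47.2% with Ago2, where the 23 nt form made up 53.4% and 48.1%. In the Ago2 libraries a form started 2 nt later, also with G, made up 18.9% and 26.9% of the strand, against 4.97% and 5.06% with Ago1.

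The opposite strand of this hairpin, miR-956-3p, is among the most abundant strands in all 4 libraries and starts with U. Its form with an added G at the start reached 182 and 293 RPM with Ago1 and 1839 and 1579 RPM with Ago2. Both Ago2 libraries were above both Ago1 libraries, by 10.1-fold at 3 d and 5.40-fold at 30 d. These reads were 0.105% and 0.150% of the strand for Ago1 and 0.747% and 1.01% for Ago2. The U forms differed between the proteins too. The one started 1 nt before the leading form made up 79.0% and 77.0% with Ago1 but 23.5% and 20.7% with Ago2. Whether the added G is encoded next to the strand in the hairpin was not tested.

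miR-263a-5p, which protects sensory bristle cells during development, starts with A in its leading 24 nt form. Its G reads, nearly all 20 nt and 21 nt forms that lack the first 4 or 3 bases, stood at 56.7 and 42.2 RPM with Ago1 and 399.8 and 969 RPM with Ago2. The Ago2 libraries were higher by 7.06-fold at 3 d and 22.9-fold at 30 d. They were a small share of the strand throughout, 0.112% and 0.114% for Ago1 and 0.0826% and 0.176% for Ago2. The age ratio was 1.28 (1.24 to 1.32) with Ago2 for the G reads, against 0.18 for all reads of the strand.

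miR-1-3p, a muscle miRNA, had G reads of 388 and 298 RPM with Ago1 and 32.5 and 95.6 RPM with Ago2. Both Ago1 libraries were above both Ago2 libraries, by 11.9-fold at 3 d and 3.12-fold at 30 d. The G reads made up 48.7% and 38.9% of the strand for Ago1 and 79.7% and 84.8% for Ago2. The start 2 nt after the full-length one alone took 33.1% and 30.6% for Ago1 and 72.4% and 84.7% for Ago2. The first 6 bases of the full-length form, TGGAAT, are also the first bases of the 3′ adapter of this kit as recalled. Sequences starting with TGGAAT held 126 and 226 RPM with Ago1 and, at 3 d, 18.8 RPM with Ago2, and an effect of adapter removal on the starts of miR-1-3p was not tested.

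Most members were end variants of a more abundant sequence. A more abundant sequence with a start 1 nt away existed for 450 of the 698 members, which is 64.5%, against 58.8% for first base A, 65.9% for C and 56.9% for U. Among the 48 more abundant members there were 21, or 43.8%. At the same minimum of 10 RPM the share was 38.3% for first base A, 37.0% for C and 19.2% for U. For 327 members the more abundant sequence started 1 nt earlier, for 302 it started 1 nt later, and 179 had both. Measured against the most abundant overlapping sequence alone, 125 members started 1 nt later and 100 started 1 nt earlier. A further 160 had the same start and differed at the 3′ end, 224 started 2 to 8 nt away, and 89 had no more abundant overlapping sequence.

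**Figure D3:**
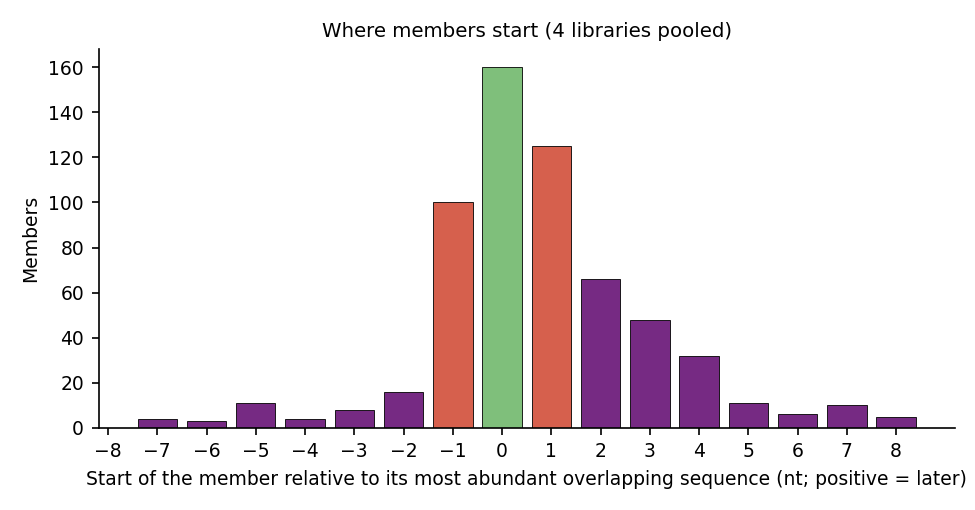
Number of members (y axis) by the distance of their start from that of their most abundant overlapping sequence (x axis, nt, positive is later; 4 libraries pooled). Of the members, 160 have the same start (green), 225 start 1 nt away (red) and 224 start 2 to 8 nt away (purple); 89 with no more abundant overlapping sequence are not drawn.

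The reads were distributed otherwise than the sequences. The 89 members with no more abundant overlapping sequence took 74.9% and 80.2% of the G reads in the Ago1 libraries and 72.9% and 78.4% in the Ago2 libraries. The 225 members 1 nt away from the most abundant overlapping sequence held 714 and 487 RPM with Ago1 and 475 and 612 RPM with Ago2. The 224 members 2 to 8 nt away held 364 and 451 RPM with Ago1 and 2418 and 2770.3 RPM with Ago2, which is 6.64-fold more with Ago2 at 3 d and 6.14-fold at 30 d. Most reads of that last group came from a few G forms of miR-956-3p, which lie 1 nt from another abundant form of their strand, and of miR-263a-5p. Without these strands, a choice made after the values were seen, it held 125 and 116 RPM with Ago1 and 179 and 222 RPM with Ago2, 1.43-fold and 1.91-fold more with Ago2.

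The sums for later and earlier starts differed in sign, and the sign for earlier starts turned when miR-996-5p was left out. Members started 1 nt later held 470 and 305 RPM with Ago1 and 111 and 139 RPM with Ago2, with log2 ratios of Ago2 over Ago1 of -2.09 (-2.16 to -2.01) and -1.13 (-1.18 to -1.08). Members started 1 nt earlier held 244 and 182 RPM with Ago1 and 364 and 473 RPM with Ago2, with log2 ratios of 0.58 (0.52 to 0.63) and 1.37 (1.33 to 1.42). Without miR-996-5p, also left out after the values were seen, the earlier starts held 192 and 128 RPM with Ago1 and 81.2 and 88.4 RPM with Ago2. Their log2 ratio was then -1.24 (-1.34 to -1.15) at 3 d and -0.53 (-0.60 to -0.46) at 30 d, the opposite sign. The 3 d value kept this sign under the 3 scalings, at -0.26 to -0.38, whereas the 30 d value turned to 0.19 with TMM, to 0.16 with the median of ratios and to 0.00055 without the 10 most abundant sequences. Of the earlier starts that remained, the 21 nt form of miR-1-3p alone held 122 and 65.9 RPM with Ago1 and 2.37 and 1.68 RPM with Ago2. At each age that form held more RPM with Ago1 than the amount by which the remaining Ago1 sum exceeded the Ago2 sum. The negative ratios without miR-996-5p thus rested on that form, and a ratio without both strands was not made.

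The members started 1 nt later came from abundant strands whose second base is G. Their G reads, most of them at this start with Ago1, are given for the leading 4. Those of let-7-5p stood at 109 and 60.2 RPM with Ago1 and 5.11 and 12.4 RPM with Ago2. Those of bantam-3p, which promotes growth, stood at 74.3 and 33.1 RPM with Ago1 and 0.519 and 0.579 RPM with Ago2. Those of miR-31a-5p stood at 81.3 and 43.8 RPM with Ago1 and 0.815 and 1.27 RPM with Ago2, and those of miR-184-3p at 164 and 125 RPM and at 71.5 and 69.1 RPM. In all 4 strands both Ago1 libraries were above both Ago2 libraries. The same held for their leading start, with U. For bantam-3p it held 86027 and 65642 RPM with Ago1 and 625 and 725 RPM with Ago2. As a share of their strand the G reads were few, for example 0.467% and 0.286% of let-7-5p in the Ago1 libraries and 0.521% and 0.581% in the Ago2 libraries. The later start of miR-305-3p, also with G, was higher with Ago2 at each age. It held 14.9 and 19.2 RPM with Ago1 and 18.8 and 24.7 RPM with Ago2.

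Among the strands of at least 100 RPM, 21 had G as second base of their leading form, so that a start 1 nt later gives a G. In those with at least 1000 reads in the library, the median share of reads started 1 nt later was 0.264% and 0.191% in the Ago1 libraries and 0.407% and 0.294% in the Ago2 libraries. The medians for second bases A, C and U were higher in each library, from 0.284% to 1.23%. A G just before the leading start was seen in 19 strands from their longer listed forms, and a start there took a median of 0.00398% and 0.00239% for Ago1 and 0.0197% and 0.0291% for Ago2. The highest of these was miR-996-5p.

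**Figure D4:**
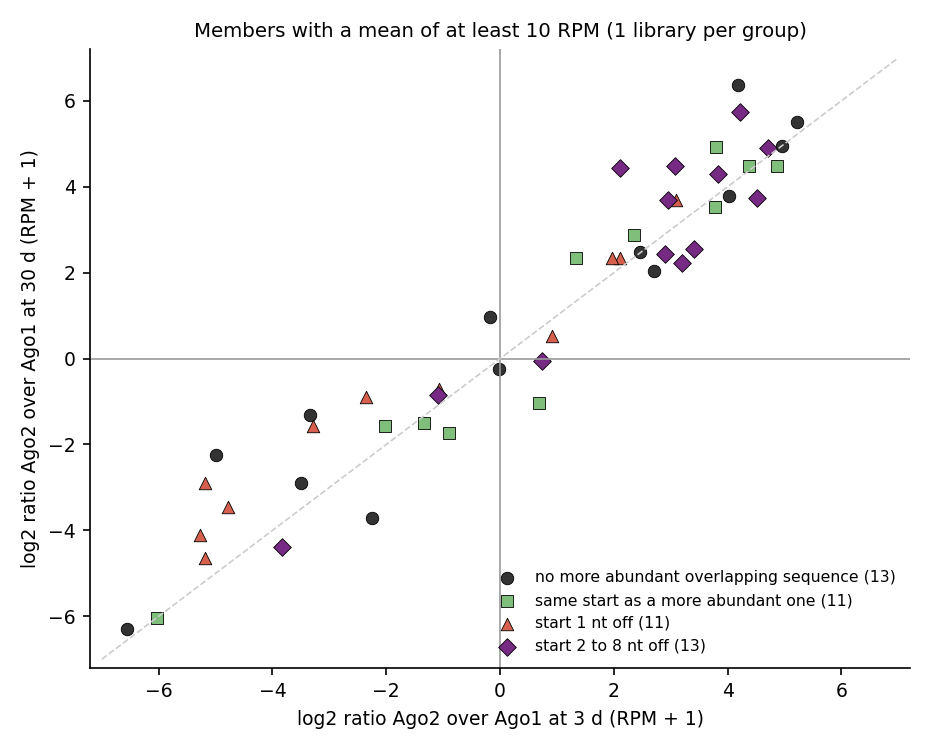
Log2 ratio of Ago2 over Ago1 (RPM + 1) at 3 d (x axis) and at 30 d (y axis) for the 48 members averaging 10 RPM or more, marked by their start relative to the most abundant overlapping sequence. Of the 13 members that start 2 to 8 nt away most lie in the upper right, and members 1 nt away lie on both sides of 0.

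Single members were compared on the scale of log2(RPM + 1) where they averaged 10 RPM or more in the libraries compared. A member rare with 1 protein passes this minimum only if it is high with the other, so such members had to differ. At 3 d 45 members of 25 strands passed, of which 23 were at least 2-fold higher with Ago2, against 22.8% of all sequences of 20 to 24 nt that passed, and 16 at least 2-fold lower, against 64.6%. At 30 d 50 members passed, of which 27 were at least 2-fold higher, against 25.2%, and 15 at least 2-fold lower, against 61.6%. As shares, G had 51.1% higher and 35.6% lower at 3 d and 54% and 30% at 30 d. First base C lay near G, with 43.5% and 32.9% at 3 d and 47.1% and 29.9% at 30 d. First base A had 16% and 73%, then 19.3% and 66.3%, and U had 11.7% and 79.3%, then 11.3% and 80.9%. The median log2 ratio of the members was 1.33 at 3 d and 2.28 at 30 d, and that of all sequences was -2.99 and -2.37. TMM scaling moved the median of all sequences up by 1.25 at 3 d and 0.82 at 30 d. Under it 31 members were higher and 12 lower at 3 d, and 30 were higher and 8 lower at 30 d. Shares over all sequences were not computed under TMM, so the shares above do not apply to these counts. The same holds for the counts under other scalings given below.

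The members differed widely among themselves. At 3 d the highest log2 ratios were 5.22 for the 22 nt form of miR-988-5p, 4.96 for that of miR-996-5p and 4.87 for the 23 nt form of miR-988-5p. The lowest were -6.56 and -6.02 for the 23 nt and 22 nt forms of miR-993-3p and -5.27 for the form of miR-31a-5p started 1 nt later. At 30 d the order was led by an unnamed 23 nt strand with seed GTATCCA at 6.37, and the lowest were again the forms of miR-993-3p, at -6.29 and -6.04. The 21 nt form of miR-281-2-5p started 2 nt later and the 20 nt form of miR-34-5p started 1 nt later stood at -4.39 and -4.04 at 30 d. The strand with seed GTATCCA had G reads of 4.02 and 1.89 RPM with Ago1 and 91.5 and 237 RPM with Ago2.

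**Figure D5:**
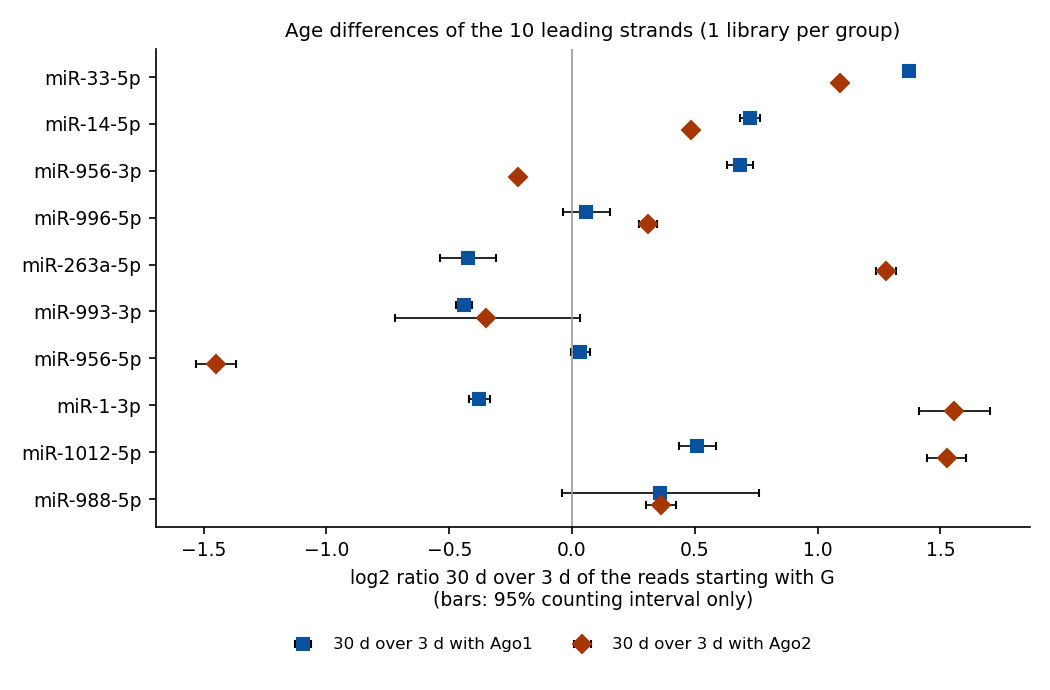
Log2 ratio of 30 d over 3 d (x axis) of the reads starting with G for the 10 leading strands (rows), with Ago1 (blue squares) and with Ago2 (brown diamonds); bars are 95% counting intervals, 1 library per group. Both values of miR-33-5p lie above 1, whereas miR-263a-5p and miR-1-3p are below 0 with Ago1 and above 1 with Ago2, and miR-956-5p is below -1 with Ago2 alone.

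With age, few members passed 2-fold with Ago1. Of 36 members 4 were at least 2-fold higher at 30 d, against 8.86% of all sequences that passed, and 3 at least 2-fold lower, against 13%. The 4 were the 20, 21 and 22 nt forms of miR-33-5p and the 21 nt form of miR-993-3p. The 3 were an unnamed strand with seed GTTGGGA, the form of bantam-3p started 1 nt later and the 21 nt form of miR-263a-5p. That unnamed strand was the lowest, with G reads of 167 and 25.7 RPM with Ago1 and 10.2 and 11.6 RPM with Ago2. TMM scaling gave 3 higher and 7 lower.

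With Ago2, 44 members passed, of which 12 were at least 2-fold higher at 30 d, against 18.4%, and 2 at least 2-fold lower, against 8.22%. The 2 lower ones were the 24 nt and 23 nt forms of miR-956-5p. The higher ones were led by the 20 nt form of miR-1-3p at 1.82, the 20 nt form of miR-33-5p at 1.72 and the 21 nt form of miR-1012-5p at 1.70. This split depended on the scaling, with 8 higher and 5 lower under TMM, 5 and 5 under the median of ratios, and 4 and 5 under totals without the 10 most abundant sequences.

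The ratio of Ago2 over Ago1 was also compared between the ages, for the 48 members that averaged 10 RPM or more. Of these, 14 were at least 2-fold higher at 30 d than at 3 d, against 21.7% of all sequences, and 2 at least 2-fold lower, against 9.15%. The median change was 0.28, and 0.20 over all sequences. The largest changes were 2.75 for the strand with seed GTTGGGA, 2.34 for the 21 nt form of miR-263a-5p and 2.27 for the 20 nt form of let-7-5p started 1 nt later. The 2 below -1 were the forms of miR-956-5p, at -1.71 and -1.47. Without the 10 most abundant sequences in the totals there were 9 higher and 7 lower.

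The base after the G also differed between the proteins. G followed by U, as in miR-33-5p, made up 65.3% and 84.0% of the G reads with Ago1 and 47.2% and 49.9% with Ago2. G followed by G, as in miR-14-5p, made up 13.9% and 7.15% for Ago1 and 46.2% and 42.5% for Ago2. G followed by A, as in miR-993-3p and miR-1-3p, made up 19.3% and 8.06% for Ago1 and 0.969% and 0.972% for Ago2. The 698 members held 317 distinct seeds, and among members of at least 1 RPM no seed was shared by 2 strands.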

How the data were processed

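For each of the 4 libraries the authors deposited whole-number read counts beside the small RNA sequences found. Per the submitters' processing notes, CASAVA 1.8.2, Bowtie and the build dm3 were used; the sources used here do not give the Bowtie version, the trimming or the filters, and RPM is relative to listed reads. A sequence listed up to 5 times with 1 count was counted once. The members and lists were chosen with earlier results of these data known. Strands were built by exact overlap of at least 14 nt, with starts within 8 nt and 3′ ends within 10 nt.

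No mature miRNA sequences were used here. The 26 names were recalled and matched by their first bases to leading forms, so the lists by first, second or preceding base were applied to these forms; 20 names had an annotated arm of the same length in the later build BDGP6, whose annotation also gave host genes. miR-956-5p was named by its pairing (RNAduplex, ViennaRNA 2.7.2), which ranked miR-956-3p first of 115 strands at -18.9 kcal/mol and an unnamed strand second at -18.5. Other strands are given by the seed of a form; a hairpin origin was not tested for them.

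Sums of the earlier and of the 2 to 8 nt shifted starts were repeated without their leading strands, an alternative chosen after seeing the data. Single members were compared with a pseudocount of 1 RPM and a minimum of 10 RPM, and strand sums without a pseudocount. Ratios have exact conditional binomial intervals, changes of ratios delta-method intervals, and shares are given with Wilson's. These hold for counting error alone, as PCR copies of a molecule are counted as separate reads. A count of 0 allows up to 3 reads, which is 0.0868 to 0.222 RPM. Members described were drawn from the 10 most abundant members of each library, the 10 highest and lowest per comparison, the 10 strands with the most G reads and listed strands that start with G. The alternatives tried were TMM (edgeR 4.0.16), size factors (DESeq2 1.42.0), other totals, minimums and pseudocounts, and stricter definitions of a shift. The functions were tested on simulated data. Analyses used Python 3.11.15, pandas 2.3.3, scipy 1.17.1 and R 4.3.3.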

Additional observations from a re-analysis of the deposited data

Results flagged for a closer look

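For 21 of the 48 members that averaged 10 RPM or more, the 30 d over 3 d ratio had opposite signs with Ago1 and with Ago2, on the scale of log2(RPM + 1). With 1 library per group, the difference between the proteins was not tested. The share with opposite signs was not computed for all sequences or for the other first bases. Whether the count is particular to G was therefore not tested. Both signs stayed as they were in 15 of the 21 under TMM and in 17 under each of the other scalings. In some of the 15 that kept both signs throughout, a counting interval without pseudocount included 0. With Ago1 these were the 20 nt form of miR-263a-5p and the 22 nt forms of miR-1012-5p and miR-956-3p. With Ago2 they were the 22 nt form of miR-31a-5p and the 21 nt form of miR-281-2-5p. For the 23 nt form of miR-988-5p it held with both proteins. In the others both intervals excluded 0.

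In 14 members the value was below 0 with Ago1 and above 0 with Ago2. These were the 20 nt form of miR-1-3p (-0.20 and 1.82), the 20 nt form of let-7-5p (-0.89 and 1.39) and its 21 nt form (-0.69 and 0.76). The 20 nt and 21 nt forms of miR-263a-5p stood at -0.10 and 1.32 and at -1.29 and 1.04. A 22 nt member with seed GAATTAA stood at -0.43 and 1.09, the 22 nt form of miR-31a-5p at -0.91 and 0.25 and the 22 nt form of miR-1012-5p at -0.039 and 0.97. The strand with seed GTATCCA stood at -0.83 and 1.36, and the 21 nt form of miR-999-3p at -0.93 and 0.79. The other 4 did not keep both signs under every scaling. They were the strand with seed GTTGGGA (-2.65 and 0.10), the 22 nt form of bantam-3p (-1.30 and 0.032), the 21 nt form of bantam-5p (-0.63 and 0.11) and the 20 nt form of miR-184-3p (-0.19 and 0.048).

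In 7 members the value was above 0 with Ago1 and below 0 with Ago2. The G forms of miR-956-3p stood at 0.70 and -0.28 for 23 nt, at 0.57 and -0.27 for 24 nt and at 0.30 and -0.18 for 22 nt. The 21 nt form of miR-281-2-5p stood at 0.53 and -0.024 and the 23 nt form of miR-988-5p at 0.28 and -0.12. A sign turned under at least 1 scaling in the 24 nt form of miR-956-5p (0.041 and -1.43) and the 23 nt form of miR-281-2-5p (0.083 and -0.30).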

How the results depend on the processing

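The share of G reads changed with the denominator. Over reads of 20 to 24 nt alone it was 6867 and 12486 RPM with Ago1 and 13382 and 21162 RPM with Ago2. With repeated lines added up it was 6746 and 12248 RPM with Ago1, and without miR-33-5p 3143, 2873, 9185 and 12202 RPM. The summed log2 ratio of Ago2 over Ago1 at 3 d was 1.76 with TMM, 1.87 with the median of ratios, 1.81 without the 10 most abundant sequences in the totals, 0.96 over 20 to 24 nt and 1.55 without miR-33-5p. At 30 d it was 1.39, 1.36, 1.19, 0.76 and 2.09. Its change with age was -0.37, -0.52, -0.61, -0.20 and, reversed, 0.54. The age ratio with Ago1 was 0.74, 0.82 and 0.88 under the 3 scalings and, reversed, -0.13 without miR-33-5p. With Ago2 it was 0.37, 0.30, 0.27, 0.66 and 0.41.

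Counts of members past 2-fold moved most with the minimum. At 1 RPM, higher and lower counts were 50 and 51 for Ago2 over Ago1 at 3 d, 58 and 41 at 30 d, 7 and 7 with age for Ago1, 23 and 5 for Ago2, and 27 and 8 for the change of the ratio. At 100 RPM they were 6 and 3, 7 and 5, 0 lower with age for Ago1, 6 and 0 for Ago2, and 3 and 1. A pseudocount of 0.1 RPM gave 5 lower with age for Ago1. Scaling gave 8 lower at 30 d (TMM and the median of ratios) and 7 lower with age for Ago1 (TMM). With age for Ago2 it gave 5 higher (median of ratios), 4 higher (without the 10 most abundant) and 5 lower (each scaling). For the change of the ratio it gave 9 higher (without the 10 most abundant) and 7 lower (median of ratios and without the 10). The median age ratio with Ago2 was 0.19, 0.13 and 0.089 under the 3 scalings. Medians that reversed were 0.70 with age for Ago1 at 100 RPM, and for the change of the ratio -0.12 at 100 RPM and -0.081 without the 10 most abundant. Over the 5 comparisons 29 of 35 alternative medians stayed inside the order-statistic 95% interval of the value as reported, with its sign. Members 1 nt from a more abundant sequence numbered 225 when only the most abundant one counted.

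Over the 30 leading strands, scaling turned the sign of Ago2 over Ago1 in 3 at 3 d and 2 at 30 d, and of the age ratio in 2 with Ago1 and 6 with Ago2. These include miR-996-5p with both proteins, and miR-956-5p with Ago1 and miR-988-5p with Ago2. No paired analysis was possible because each group had 1 library, and leaving out a library leaves none in its group. Depth limits the ratios of strands that are rare with 1 protein, such as bantam-3p, whose G reads with Ago2 stood at 0.519 and 0.579 RPM.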

Other observations

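Members that start like the 5′ end of an intron, with GTAAGT or GTGAGT, were looked at after their values had been seen. They numbered 56 in 19 strands, 8.02% of the members and 19.5% of those that start with GT. Together they held 9.35 and 17.1 RPM with Ago1 and 78.1 and 86.1 RPM with Ago2 at 3 d and 30 d, so both Ago2 libraries were above both Ago1 libraries. On the log2 scale Ago2 exceeded Ago1 by 3.06 (2.86 to 3.27) at 3 d and 2.34 (2.19 to 2.48) at 30 d. Of the 19 strands, 11 were higher with Ago2 at 3 d and 17 at 30 d. The strand with seed TAAGTAT held more of these reads than any other in each library, with 2.78 and 8.13 RPM with Ago1 and 47.2 and 52.9 RPM with Ago2. Whether any of these members come from introns was not tested.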
